A study of Phaseolus vulgaris and Phaseolus lunatus with 12 samples.

Results

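Lima bean (*Phaseolus lunatus*, variety Peladilla) leaves that had carried spider mites for 24 h were compared with clean leaves, across every gene of the lima bean table. The members were chosen by their labels alone: 3 infested and 3 control libraries, 6 of the 12 libraries in the series. The table held 43997 of the 73321 genes listed for the 2 bean species of the study, and 18523 of them had enough reads to be tested. Infested leaves were detached first true leaves with 50 adult females of *Tetranychus urticae* (London strain) per leaflet, and control leaves were detached leaves without mites, collected at the same time. Growth lasted 3 weeks at 23 °C, under a day of 16 h and a night of 8 h. Control leaves were thus cut leaves too, and the mites came from a colony reared on common bean. Nothing in the labels ties a library to a plant of its own, so p-values measure the spread between these libraries, which may be technical.

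The two-spotted spider mite pierces leaf mesophyll cells and sucks out their contents, and plants answer such feeding mostly through the hormone jasmonate, which is known for raising defence genes while photosynthesis genes fall. Lima bean is a classic plant for this work, since its mite-infested leaves emit volatiles that attract predatory mites. It is also cyanogenic: it stores the glucosides linamarin and lotaustralin, which release hydrogen cyanide when cells are broken. Genes whose product names belong to jasmonate or photosynthesis were set aside here, and the changed genes were sorted by level, size of change and product.

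Levels are given as CPM, the reads of a gene relative to its library's total after scaling by the TMM factors of edgeR, in the order of libraries 1, 2 and 3. A gene was called when its adjusted p in edgeR's quasi-likelihood test (Benjamini-Hochberg adjustment over all 18523 genes) was below 0.05. Fold changes are log2 of infested over control ± the standard error, from 3 libraries against 3. Product names in the table are best matches to proteins of other species, so a name such as linamarin synthase 2 says what the nearest known protein does. How reads of near-identical copies were shared is not given, so single members of tight families are uncertain. The largest rises and falls named per level class were picked among genes whose infested and control ranges did not overlap. Their lack of overlap is therefore no further support.

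Total counts ran from 13317991 to 17255676 per library. The 20 most counted genes held 14.0% to 14.9% of the counts in infested libraries and 11.1% to 12% in control libraries. Markers of leaf mesophyll (44 genes of the table, 40 tested, 3 of them at 0 in every library) summed to 21109 to 41191 CPM in infested libraries and 51746 to 67240 CPM in control libraries, with 16 members called lower and 2 higher. In bulk leaves, fewer cells of a type and less RNA per cell cannot be told apart. Root and nodule markers summed to 690 to 864 CPM against 542 to 744 CPM, phloem markers to 532 to 713 CPM against 662 to 756 CPM, flower markers to 181 to 195 CPM against 169 to 200 CPM, and seed markers to 73.4 to 92 CPM against 66.5 to 162 CPM, infested before control. Guard cell markers summed to 22.4 to 28.3 CPM in infested and 21.8 to 24.5 CPM in control libraries, and xylem markers (3 genes) to 31.4 to 41 CPM in infested and 16.6 to 24.6 CPM in control libraries. The part of these shifts in the results was not tested.

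Infestation changed 3170 genes (17.1% of those tested), 1788 of them higher (9.65%) and 1382 lower (7.46%). Ranges of the infested and control libraries did not overlap for 7012 genes (37.9%), most of them not called. At least 2-fold rises numbered 821 (4.43%) and at least 2-fold falls 443 (2.39%). The jasmonate list held 62 tested genes, of which 36 rose and 4 fell, and the photosynthesis list 128, of which 5 rose and 73 fell. By number of genes, 1747 of the rises and 1305 of the falls, 96.3% of all calls, lay outside both lists. The genes that rose held 24.7%, 27.0% and 29.7% of the scaled counts in the infested libraries, against 11.2%, 11.1% and 10.9% in the control libraries. The genes that fell held 15.5%, 11.9% and 10.5% against 24.1%, 24.6% and 25.5%. Outside both lists the shares were 17.7%, 19.5% and 21.6% in infested against 8.47%, 8.73% and 8.69% in control libraries for rises, and 9.55%, 8.2% and 7.03% against 15.3%, 14.7% and 15.6% for falls. All these shares describe genes chosen by the same comparison and carry no test.

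The calls did not rest equally on all libraries. Without infested library 2 the count was 1485, without infested library 3 it was 1317, and without control library 3 it was 2066. Calls that held in the full fit and in all 6 fits that left out 1 library numbered 1207, of which 857 were higher (47.9% of the rises) and 350 lower (25.3% of the falls). Among rises, infested library 3 was the highest of the infested libraries in 68.3% of genes and infested library 1 the lowest in 60.2%. Among falls, infested library 3 was the lowest in 68.8% and infested library 1 the highest in 71.9%. Median log2 distances from the control mean were 0.79, 0.90 and 1.05 for rises and −0.59, −0.84 and −0.99 for falls in infested libraries 1, 2 and 3, over genes called with these same libraries.

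The share of genes called climbed with the level of the gene. Level was the mean CPM over all 6 libraries. Of 688 tested genes under 1 CPM, 6.25% were called, 21 higher and 22 lower. The share was 9.18% of 6166 genes at 1 to under 10 CPM (348 higher, 218 lower), 19.9% of 9934 at 10 to under 100 CPM (1115 higher, 860 lower), and 32.3% of 1636 at 100 to under 1000 CPM (285 higher, 243 lower). At 1000 CPM and over, 58.6% of 99 genes were called, 19 higher and 39 lower. The photosynthesis list held 25 of these falls, and the jasmonate list 5 of the rises. The median standard error moved with the level too, at 0.51, 0.30, 0.14, 0.13 and 0.20 from the lowest class to the highest, and the smallest change called was 1.39 under 1 CPM and 0.30 at 10 to under 100 CPM. The highest class also shifted most: the median log2 fold change of all its 99 genes, called or not, was −0.54, against −0.01 over all tested genes, and 43.4% of its genes differed by at least 2-fold in either direction against 6.26% at 10 to under 100 CPM. With levels per kilobase of gene, 57.9% of the 76 genes at 1000 and over were called, 11 higher and 33 lower.

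**Figure D1:**
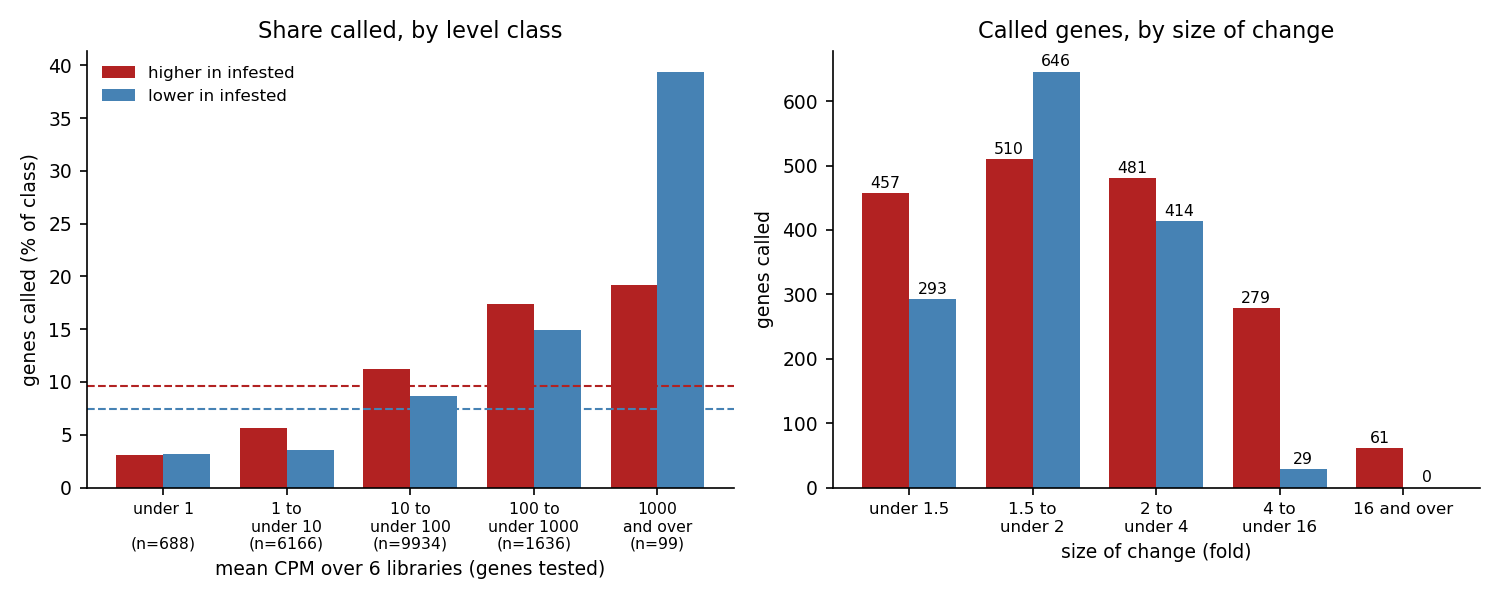
Left, percent of tested genes called higher (red) or lower (blue) in infested leaves in each class of mean CPM, with the shares over all genes (9.65% and 7.46%) as dashed lines. Right, number of called genes by size of change. The share called is highest at 1000 CPM and over, and rises of 16-fold and over number 61 against 0 falls.

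Which end of the scale held the rises depended on how level was set. By the mean over both groups, 54% to 61.5% of the calls from 1 to under 1000 CPM were higher, and 32.8% at 1000 CPM and over. By control CPM alone, 125 of 127 calls under 1 CPM were rises, and 53 of 62 calls at 1000 CPM and over were falls. A gene that rises sits in a lower control class than its mean, so the second split is in part built in. In either sorting most calls at 1000 CPM and over were falls, 39 of 99 tested genes by the mean and 53 of 107 by control CPM. By the mean, this excess lay in the photosynthesis list, which held 25 of the 39 falls. Outside both lists the class had 14 rises and 14 falls.

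Rises reached further than falls. Under 1.5-fold there were 457 rises and 293 falls, at 1.5 to under 2-fold 510 and 646, and at 2 to under 4-fold 481 and 414. At 4 to under 16-fold there were 279 rises and 29 falls, and at 16-fold and over 61 rises and 0 falls. Of those 61, 4 belonged to the jasmonate list, 54 had a product name, 6 had no read in any control library and 7 had 1 to 3 control reads, and 60 stayed called whichever library was left out. Only 13 of the 29 falls of 4-fold or more did. The largest rises began low: 55 of the 61 averaged under 10 CPM in control leaves, and 15 reached at least 100 CPM in infested leaves.

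**Figure D2:**
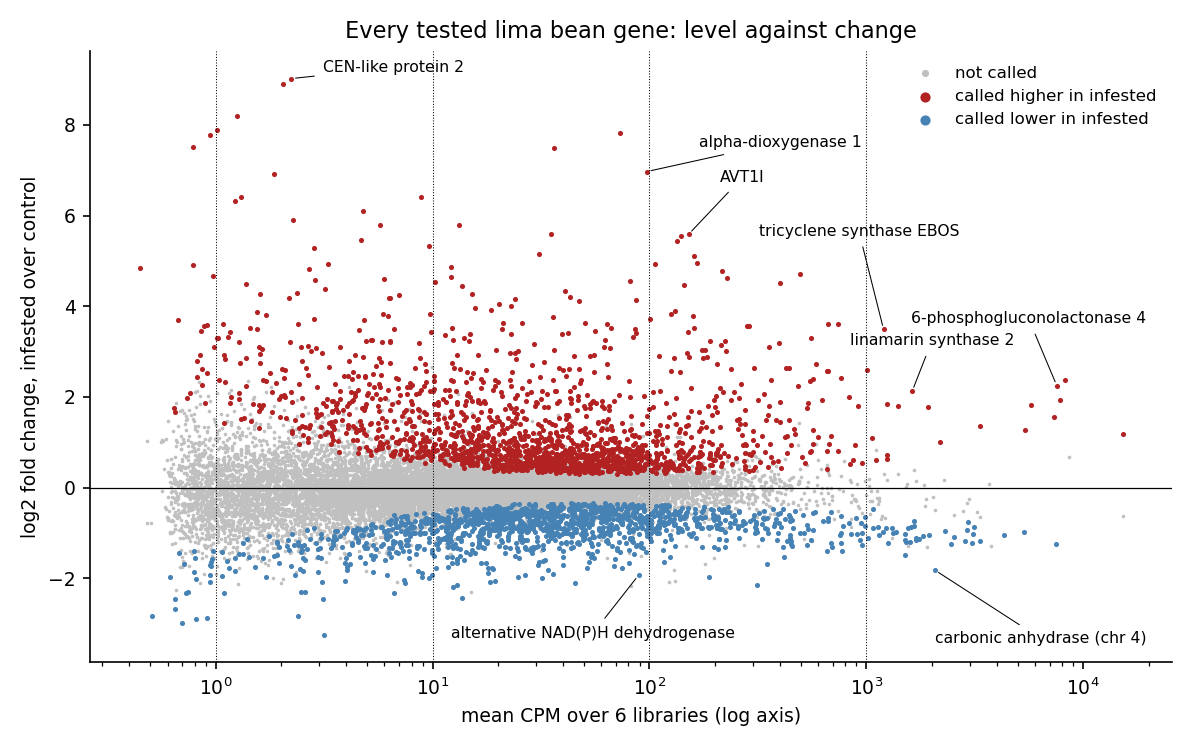
Log2 fold change (infested over control) of each of the 18523 tested genes against its mean CPM on a log axis, with dotted lines at the bounds of the level classes. Called rises (red) extend far above called falls (blue) at every level under 1000 CPM, and most called genes at the right edge are falls. Fitted changes of genes with no control reads, such as CEN-like protein 2, depend on the prior count.

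Among genes of 1000 CPM and over, 14 of the 19 rises and 14 of the 39 falls lay outside both lists. The most abundant of these rises was a probable 6-phosphogluconolactonase 4 (Pl09G0000142900.v1), an enzyme of the oxidative pentose phosphate pathway. It had 11835, 12200 and 13401 CPM in infested leaves, against 3047, 2147 and 2656 CPM in control leaves. The groups were far apart, with a log2 fold change of 2.25 ± 0.20 (adjusted p = 0.000357). Per kilobase it was the highest of all tested genes outside both lists. Lipid-cleaving enzymes stood beside it: phospholipase A1-Igamma2 (Pl01G0000301200.v1), which frees fatty acids from membrane lipids, had 6944, 7738 and 8139 CPM against 3291, 2862 and 3280 CPM (1.27 ± 0.17, adjusted p = 0.00233). Patatin-like protein 2 (Pl01G0000021700.v1), another lipid acyl hydrolase, had 3101, 2676 and 3154 CPM against 675, 1037 and 893 CPM (1.78 ± 0.19, adjusted p = 0.00085). In each case the lowest infested library exceeded the highest control library.

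Further rises in this class were of mixed function. A pectinesterase/pectinesterase inhibitor 18 (Pl02G0000006300.v1), which removes methyl groups from pectin, averaged 4835 CPM in infested and 1873 CPM in control leaves (1.37 ± 0.22, adjusted p = 0.00543). Cellulose synthase-like protein G1 (Pl05G0000001200.v1) had 2032, 1954 and 2513 CPM against 568, 552 and 753 CPM (1.80 ± 0.18, adjusted p = 0.000633). Xanthotoxin 5-hydroxylase CYP82C4 (Pl10G0000044100.v1), a cytochrome P450, had 1642, 2086 and 2114 CPM against 537, 601 and 495 CPM (1.84 ± 0.16, adjusted p = 0.000315). Tricyclene synthase EBOS (Pl11G0000125600.v1), a terpene synthase whose best match comes from a legume relative, showed the largest rise of the class, with 2602, 1731 and 2280 CPM against 204, 113 and 272 CPM (3.49 ± 0.33, adjusted p = 0.000465). The protease blocker Pl04G0000322700.v1, matching Kunitz-type trypsin inhibitor-like 2, had 1570, 1525 and 2086 CPM against 287, 298 and 278 CPM (2.59 ± 0.17, adjusted p = 0.000105). These genes kept their calls whichever library was left out.

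The falls of this class outside the photosynthesis list were mostly enzymes of carbon fixation, photorespiration and chlorophyll or nitrogen supply in the chloroplast. The exceptions were ABC transporter F family member 5, BURP domain protein RD22, polyubiquitin-A and a gene without product name. Carbonic anhydrase (Pl04G0000014800.v1), which hydrates carbon dioxide, had 1543, 667 and 529 CPM in infested leaves against 2513, 3297 and 3890 CPM in control leaves (−1.82 ± 0.39, adjusted p = 0.0167). Fructose-bisphosphate aldolase 1 (Pl11G0000046300.v1) had 4523, 3440 and 2809 CPM against 6541, 6940 and 7809 CPM (−0.98 ± 0.21, adjusted p = 0.0174). Infested library 1 lay nearest the controls in both, and the groups did not overlap. In edgeR's test both calls ended without infested library 2 (adjusted p = 0.0718 for carbonic anhydrase and 0.0774 for the aldolase), infested library 3 (0.0585 and 0.0672) or control library 3 (0.0527 and 0.0531). Of the 39 falls of the class, 7 stayed called whichever library was left out, against 16 of the 19 rises. The 1 fall without a product name (Pl07G0000045200.v1, chromosome 7) was among those 7, with 821, 819 and 612 CPM against 1885, 1433 and 1941 CPM (−1.22 ± 0.18, adjusted p = 0.00403).

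Not every abundant gene changed. Of the 99 genes, 41 were not called. The gene with the most counts outside both lists is named pentatricopeptide repeat-containing protein At3g14730 (Pl02G0000321600.v1), but it also carries a chlorophyll a-b binding domain, so its reads need not come from a pentatricopeptide gene. It had 14886, 10530 and 10635 CPM in infested leaves against 17932, 18720 and 18597 CPM in control leaves (−0.62 ± 0.22, adjusted p = 0.0872). Pro-cathepsin H (Pl09G0000320000.v1), a cysteine protease, averaged 2636 CPM in infested and 3839 CPM in control leaves (adjusted p = 0.0936). Just under the class, at 889 CPM over all libraries, peptidyl-prolyl cis-trans isomerase 1 (Pl11G0000030700.v1), a protein-folding helper, averaged 814 CPM in infested and 965 CPM in control leaves (adjusted p = 0.364), with overlapping values.

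At 100 to under 1000 CPM the largest rises outside the lists were of transport, ester cleavage and terpenoid supply. Amino acid transporter AVT1I (Pl08G0000044400.v1), of a family that carries amino acids across the vacuole membrane, had 218, 306 and 368 CPM in infested leaves against 6.28, 9.95 and 2.24 CPM in control leaves (5.59 ± 0.47, adjusted p = 0.000257). Probable carboxylesterase 12 (Pl11G0000379500.v1) had 221, 289 and 457 CPM against 7.25, 17.5 and 6.37 CPM (4.96 ± 0.45, adjusted p = 0.000383). Pl03G0000380500.v1, matching the DXS2 enzyme that starts isoprenoid synthesis in plastids, averaged 275 and 5.89 CPM (5.55 ± 0.54, adjusted p = 0.000533). The highest control library was far below the lowest infested library in all of them, and the naming rule for level classes admits only ranges that do not overlap. Peroxidase 54 (Pl06G0000246800.v1), a secreted enzyme that uses hydrogen peroxide, had 361, 927 and 1002 CPM against 42.1, 27.7 and 29.7 CPM (4.52 ± 0.40, adjusted p = 0.000351).

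The falls of the same class were shallower. Probable carotenoid cleavage dioxygenase 4 (Pl02G0000066600.v1), which cuts carotenoids in plastids, had 516, 436 and 322 CPM in infested leaves against 1164, 976 and 1208 CPM in control leaves (−1.39 ± 0.19, adjusted p = 0.00274). A cytoplasmic fructose-bisphosphate aldolase (Pl08G0000426700.v1) had 115, 60.5 and 52.2 CPM against 292, 297 and 312 CPM (−1.98 ± 0.27, adjusted p = 0.00286). Light-regulated protein (Pl01G0000108800.v1) averaged 64.1 and 183 CPM (−1.52 ± 0.24, adjusted p = 0.00511). Only 1 of the class's falls reached 4-fold, against 50 of its rises at 4 to under 16-fold and 11 at 16-fold and over.

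At 10 to under 100 CPM the rises held genes that were close to absent from clean leaves. Alpha-dioxygenase 1 (Pl04G0000018900.v1), which adds oxygen to fatty acids, had 89.0, 277 and 214 CPM in infested leaves against 1.37, 2.66 and 0.579 CPM in control leaves (6.97 ± 0.58, adjusted p = 0.000257). Peroxidase 12 (Pl04G0000129800.v1) had 29.4, 115 and 72.2 CPM against 0.571, 0.35 and 0.217 CPM (7.49 ± 0.65, adjusted p = 0.000295). A gene matching glutelin type-A 2 (Pl02G0000381500.v1), a seed storage protein of rice, had 26.3, 86.8 and 94.7 CPM against 1.37, 2.31 and 0.579 CPM (5.60 ± 0.59, adjusted p = 0.000802). Infested library 1 was the lowest of the infested libraries in all of these, yet well above every control library. Glycerol-3-phosphate acyltransferase RAM2 (Pl07G0000353400.v1), known in *Medicago* for lipids that roots make in symbiosis with fungi, averaged 26 CPM in infested and 0.454 CPM in control leaves (5.80 ± 0.50, adjusted p = 0.000291).

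Among the falls of this class, an internal alternative NAD(P)H-ubiquinone oxidoreductase A1 (Pl02G0000297300.v1), a bypass of the mitochondrial respiratory chain, had 42.6, 36.4 and 32.3 CPM in infested leaves against 164, 127 and 132 CPM in control leaves (−1.93 ± 0.15, adjusted p = 0.000187). High mobility group B protein 9 (Pl09G0000022000.v1), a DNA-binding protein, had 15.8, 13.0 and 9.71 CPM against 64.2, 49.0 and 40.4 CPM (−2.0 ± 0.22, adjusted p = 0.00095). Cysteine-rich receptor-like protein kinase 29 (Pl07G0000053700.v1) had 4.58, 5.45 and 3.41 CPM against 23.9, 15.4 and 21.6 CPM (−2.18 ± 0.23, adjusted p = 0.000824). All infested libraries lay below all control libraries, a separation that the naming rule for level classes requires. These falls kept their calls whichever library was left out.

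At the lower end, some genes had reads in infested leaves alone. The 6 genes called with no read in any control library were all higher in infested leaves, and no gene was called with 0 reads in every infested library. CEN-like protein 2 (Pl01G0000340500.v1), of the family of flowering regulators that includes CENTRORADIALIS, had 27, 71 and 89 reads in infested libraries 1, 2 and 3 and 0 in the controls, at least 67.9-fold higher when 3 reads over the control group are taken as the floor (0.0658 CPM; adjusted p = 0.00329). Phenolic glucoside malonyltransferase 2 (Pl08G0000034200.v1) had 28, 78 and 67 reads (at least 62.4-fold, adjusted p = 0.00242). The P450 CYP94B1 (tig000020350050.v1), a name known in *Arabidopsis* for oxidising the active jasmonate conjugate, had 18, 25 and 41 reads (at least 30.9-fold, adjusted p = 0.00417). The P450 714C2 (Pl04G0000301300.v1) had 22, 27 and 29 (at least 28.6-fold, adjusted p = 0.00218), and a LEAF RUST 10 receptor-like kinase (Pl07G0000033300.v1) had 11, 20 and 34 (at least 23.8-fold, adjusted p = 0.0078). These floors cover counting error only.

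Falls of low genes were less firm. Under 1 CPM, 22 genes fell, and 0 of them stayed called in every fit that left out 1 library, against 7 of the 21 rises. At 1 to under 10 CPM, 35 of 218 falls and 144 of 348 rises did. Putative GATA transcription factor 22 (Pl09G0000054900.v1), known in *Arabidopsis* for chloroplast development, was among them, with 3.34, 1.60 and 1.70 CPM in infested leaves against 11.4, 8.83 and 12.9 CPM in control leaves (−2.32 ± 0.32, adjusted p = 0.00264). An F-box/kelch-repeat protein (Pl03G0000073700.v1), of a family that marks proteins for breakdown, had 3.57, 2.86 and 2.00 CPM against 14.2, 10.6 and 11.4 CPM (−2.10 ± 0.25, adjusted p = 0.00142). The groups stood apart in both, as the naming rule for level classes requires.

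A small change can be called only where libraries agree closely. The genes named here were picked for the smallest p per direction among changes under 2-fold. Changes under 2-fold made up 967 rises and 939 falls. Proton pump-interactor 1 (Pl05G0000091400.v1), which binds the plasma membrane proton pump, had 262, 260 and 281 CPM in infested leaves against 149, 155 and 141 CPM in control leaves (0.86 ± 0.10, adjusted p = 0.00145). UDP-glucose 6-dehydrogenase 4 (Pl03G0000046900.v1), which makes sugar precursors for the cell wall, had 74.0, 73.2 and 79.6 CPM against 34.8, 40.7 and 40.7 CPM (0.97 ± 0.10, adjusted p = 0.00084). On the other side, auxin-induced protein 22B (Pl07G0000128400.v1), a repressor of auxin responses, had 53.3, 47.3 and 50.8 CPM against 94.1, 86.9 and 89.4 CPM (−0.84 ± 0.10, adjusted p = 0.00119). The histone methyltransferase SUVR4 (Pl06G0000219700.v1) had 39.8, 40.9 and 41.9 CPM against 70.1, 68.2 and 66.2 CPM (−0.74 ± 0.09, adjusted p = 0.00145).

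Linamarin synthase 2, named after the cassava glucosyltransferase that puts the glucose on the cyanogenic precursor, had 4 genes in the table, all tested and all on chromosome 6 between 13030098 and 14065837. This group was chosen after its values were seen, as were the glycosyl hydrolase 18, tRNA ligase, mevalonate, triterpene, photorespiration and serine groups described further on. The main copy, Pl06G0000090100.v1, had 2602, 2644 and 2698 CPM in infested leaves against 543, 531 and 744 CPM in control leaves (2.13 ± 0.17, adjusted p = 0.000246). Copy Pl06G0000088100.v1 had 89.7, 89.6 and 88.8 CPM against 24.7, 19.8 and 29.0 CPM (1.87 ± 0.14, adjusted p = 0.000178), and Pl06G0000093600.v1 had 60.6, 63.7 and 61.4 CPM against 20, 16.8 and 24.2 CPM (1.61 ± 0.14, adjusted p = 0.000291). The infested libraries were nearly identical in all of these.

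The remaining linamarin synthase copy, Pl06G0000087000.v1, had 315, 214 and 205 CPM in infested leaves against 267, 402 and 471 CPM in control leaves and was not called (−0.64 ± 0.24, adjusted p = 0.106). Its groups overlapped, but without infested library 1 or control library 1 it was called lower (adjusted p = 0.038 and 0.0373). Summed over the 4 copies, the level was 3067, 3011 and 3053 CPM in infested leaves against 854, 970 and 1269 CPM in control leaves. Because these copies share a name and may share reads, the split between them is uncertain. CYP71AN24, a P450 of an aldoxime route to nitriles in Japanese apricot, was the name of 4 tested genes, also picked after their values were seen: Pl09G0000237500.v1 had 16, 39 and 50 reads against 0 in the controls (at least 38.2-fold higher, adjusted p = 0.00475), and Pl03G0000280800.v1 had 14.4, 16.0 and 13.0 CPM against 55.8, 32.4 and 52.6 CPM (−1.70 ± 0.21, adjusted p = 0.00165). The other two were not called, Pl10G0000253500.v1 at 87.2 and 81.9 CPM (adjusted p = 0.89) and Pl05G0000002700.v1 at 1.02 and 1.48 CPM (adjusted p = 0.487), infested before control.

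A cluster without product names rose as a block. The glycosyl hydrolase family 18 domain, found in chitinases and in proteins that only resemble them, was carried by 17 tested genes, of which 9 rose and 0 fell. That is 52.9% higher against 9.65% over all genes, in a group picked after its values were seen. Those 9 were exactly the tested genes with the domain on chromosome 9, within 152 kb (38860034 to 39012383), and none had a product name. They are 858 to 867 bases long by the table's length column. Together they had 1072, 1245 and 1165 CPM in infested leaves, against 82.7, 224 and 101 CPM in control leaves. The strongest by level was Pl09G0000336000.v1 with 329, 468 and 417 CPM against 22.6, 76.9 and 29.5 CPM (3.24 ± 0.44, adjusted p = 0.00259).

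Fold changes in the cluster were alike, from 2.73 to 3.40 for the 8 genes with over 3 control reads, and the largest adjusted p of the 9 was 0.00259. The last gene (Pl09G0000336500.v1) had 187 reads summed over infested and 3 over control libraries. Control library 2 was the highest control in the summed values, and all infested libraries were above it. The 3 other tested genes in the span were not called. The 8 tested genes with this domain elsewhere, among them Class V chitinase CHIT5 (Pl01G0000054600.v1) at 8.1 CPM in infested and 10.3 CPM in control leaves (adjusted p = 0.605), were not called either. Copies this alike in length and place may share reads, so single values are uncertain.

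**Figure D3:**
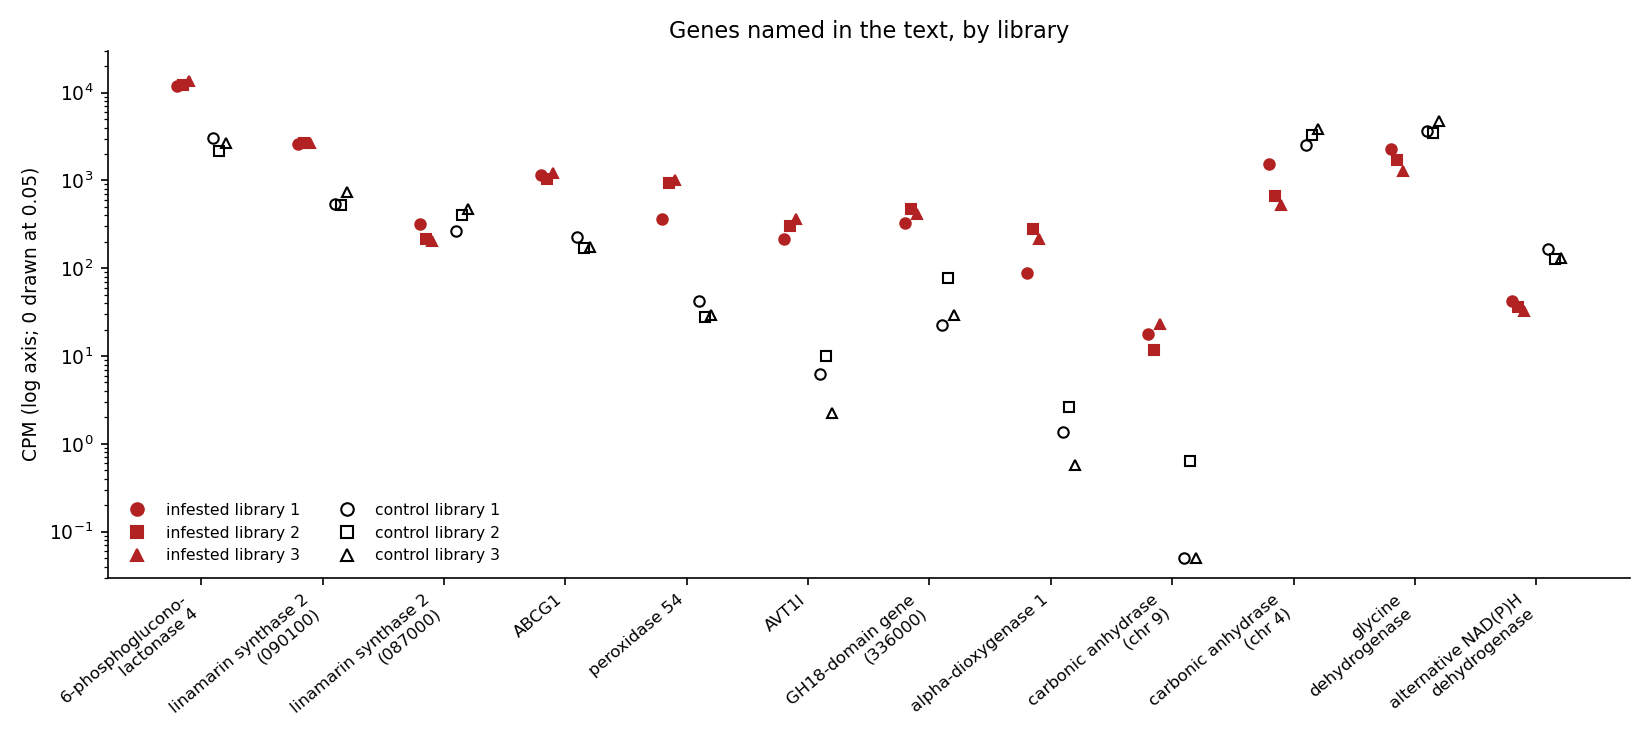
CPM of 12 genes in each library on a log axis, infested (filled red) left of control (open black), with marker shape for library number and values of 0 drawn at 0.05 CPM. The second linamarin synthase copy shown overlaps between groups, and the carbonic anhydrase genes of chromosomes 9 and 4 differ in opposite directions.

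Genes without a product name were counted apart. Of 4044 tested, 13.5% were called, 224 higher and 320 lower, against 18.1% of 14479 named genes, 1564 higher and 1062 lower. Their median level was 9.83 CPM against 19.8 CPM, and the share called climbed with level; the difference between the shares was not tested. Some belong by domain to a list that product words missed: Pl02G0000126400.v1 carries the tify domain of jasmonate repressors and had 200, 210 and 272 CPM in infested leaves against 27.4, 30.4 and 36.1 CPM in control leaves (2.86 ± 0.17, adjusted p = 8.31e-05). Pl06G0000284200.v1, with tify and Jas domains, had 12.4, 12.4 and 15.3 CPM against 0.799, 0.701 and 0.579 CPM (4.24 ± 0.24, adjusted p = 7.33e-05). The set-aside jasmonate count thus misses such genes. It is a count of word matches that also takes in genes named linoleate 9S-lipoxygenase. Among the falls, Pl03G0000073200.v1, which holds a domain of unknown function, had 17.0, 18.5 and 15.8 CPM against 86.6, 61.8 and 71.1 CPM (−2.10 ± 0.15, adjusted p = 0.000141). Transposon-like products or domains were 2901 genes of the table and 103 of those tested, with 1 higher and 3 lower. That is 3.88% called against 17.1% over all genes, a difference that was not tested.

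Some product lists had many more rises than falls among their called members. MAP kinase cascade genes, which relay stress signals from the cell surface, had 14 higher and 0 lower of 41 (34.1% higher against 9.65% over all genes; median log2 fold change 0.12 against −0.01). MAP kinase kinase 2 (Pl09G0000322900.v1) had 122, 83.9 and 74.2 CPM in infested leaves against 23.0, 33.0 and 24.5 CPM in control leaves (1.80 ± 0.21, adjusted p = 0.00144). MAP kinase kinase kinase 20 (Pl03G0000289900.v1) had 37.2, 37.4 and 44.2 CPM against 6.97, 9.46 and 12.5 CPM (2.04 ± 0.20, adjusted p = 0.000581). The count was 10 higher without infested library 2 or 3.

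Vesicle traffic and SNARE genes, which move cargo between membranes, had 28 higher and 2 lower of 154 (18.2% and 1.3%; median 0.23), and only 4 of the rises reached 2-fold. Exocyst subunit EXO70H1 (Pl01G0000319200.v1), which tethers secretory vesicles to the plasma membrane, had 36.8, 35.2 and 40.3 CPM in infested leaves against 16.7, 14.6 and 15.7 CPM in control leaves (1.26 ± 0.11, adjusted p = 0.000348). Coatomer subunit alpha-1 (Pl11G0000048000.v1) had 129, 118 and 120 CPM against 72.2, 81.6 and 85.3 CPM (0.62 ± 0.11, adjusted p = 0.00678). Proteasome genes, whose complex degrades marked proteins, had 12 higher and 0 lower of 52 (23.1%; median 0.31), each under 2-fold. Proteasome subunit beta type-4 (Pl06G0000214200.v1) had 206, 199 and 230 CPM against 135, 125 and 134 CPM (0.69 ± 0.11, adjusted p = 0.00449). Both counts of rises shrank when a library was left out: 11 vesicle and 3 proteasome genes were called higher without infested library 2, and 8 and 2 without infested library 3. Leaving out control library 2 gave 16 vesicle and 6 proteasome rises. The proteasome count was 7 when infested library 1 or control library 1 was dropped and 4 when control library 3 was, and 7 under upper-quartile or library-total scaling.

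Among cell wall and sugar lists, some had rises and no falls. Pectin enzymes had 18 higher and 0 lower of 103 (17.5%; median 0.18), cellulose synthesis 9 and 0 of 41 (22%; median 0.35), sugar transport 10 and 0 of 44 (22.7%; median 0.19), and chitinases and glucanases 9 and 0 of 50 (18%; median −0.03). Others held rises and falls: expansins and xyloglucan enzymes had 12 higher and 3 lower of 54 (22.2% and 5.56%). Sucrose and invertase genes had 3 and 2 of 21 (14.3% and 9.52%), and starch metabolism 3 and 5 of 30 (10% and 16.7%). The shares of starch rises and sucrose falls lie near those over all genes (9.65% and 7.46%). Sucrose and invertase rises came to 1 when any infested library or control library 2 or 3 was dropped. They also came to 1 under upper-quartile or library-total scaling. The falls of that list came to 1 when infested library 2 or 3 was dropped. Expansin and xyloglucan rises came to 7 when infested library 2 or 3 or control library 1 or 2 was dropped, and starch falls to 0 and 1 when infested libraries 2 and 3 were. A polygalacturonase inhibitor (Pl09G0000257800.v1), which blocks pectin-cutting enzymes of fungi and insects, had 870, 719 and 1157 CPM in infested leaves against 164, 144 and 228 CPM in control leaves (2.36 ± 0.23, adjusted p = 0.000581). Polyol transporter 5 (Pl04G0000361200.v1) had 39.3, 45.1 and 55.0 CPM against 10.6, 8.55 and 12.8 CPM (2.12 ± 0.18, adjusted p = 0.000295). Glucan endo-1,3-beta-glucosidase 14 (Pl05G0000232700.v1), which cuts callose, had 69.7, 57.2 and 88.4 CPM against 4.11, 9.74 and 6.80 CPM (3.39 ± 0.30, adjusted p = 0.000312). With infested library 3 left out, the rises numbered 10 pectin, 6 cellulose, 7 sugar transport and 3 glucanase and chitinase genes. Dropping infested library 2 gave 4 cellulose and 4 glucanase and chitinase genes, and dropping control library 3 gave 5 of the last kind. Cellulose genes also numbered 6 without infested library 1 or control library 2, and glucanase and chitinase genes 6 without infested library 1 or control library 1.

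**Figure D4:**
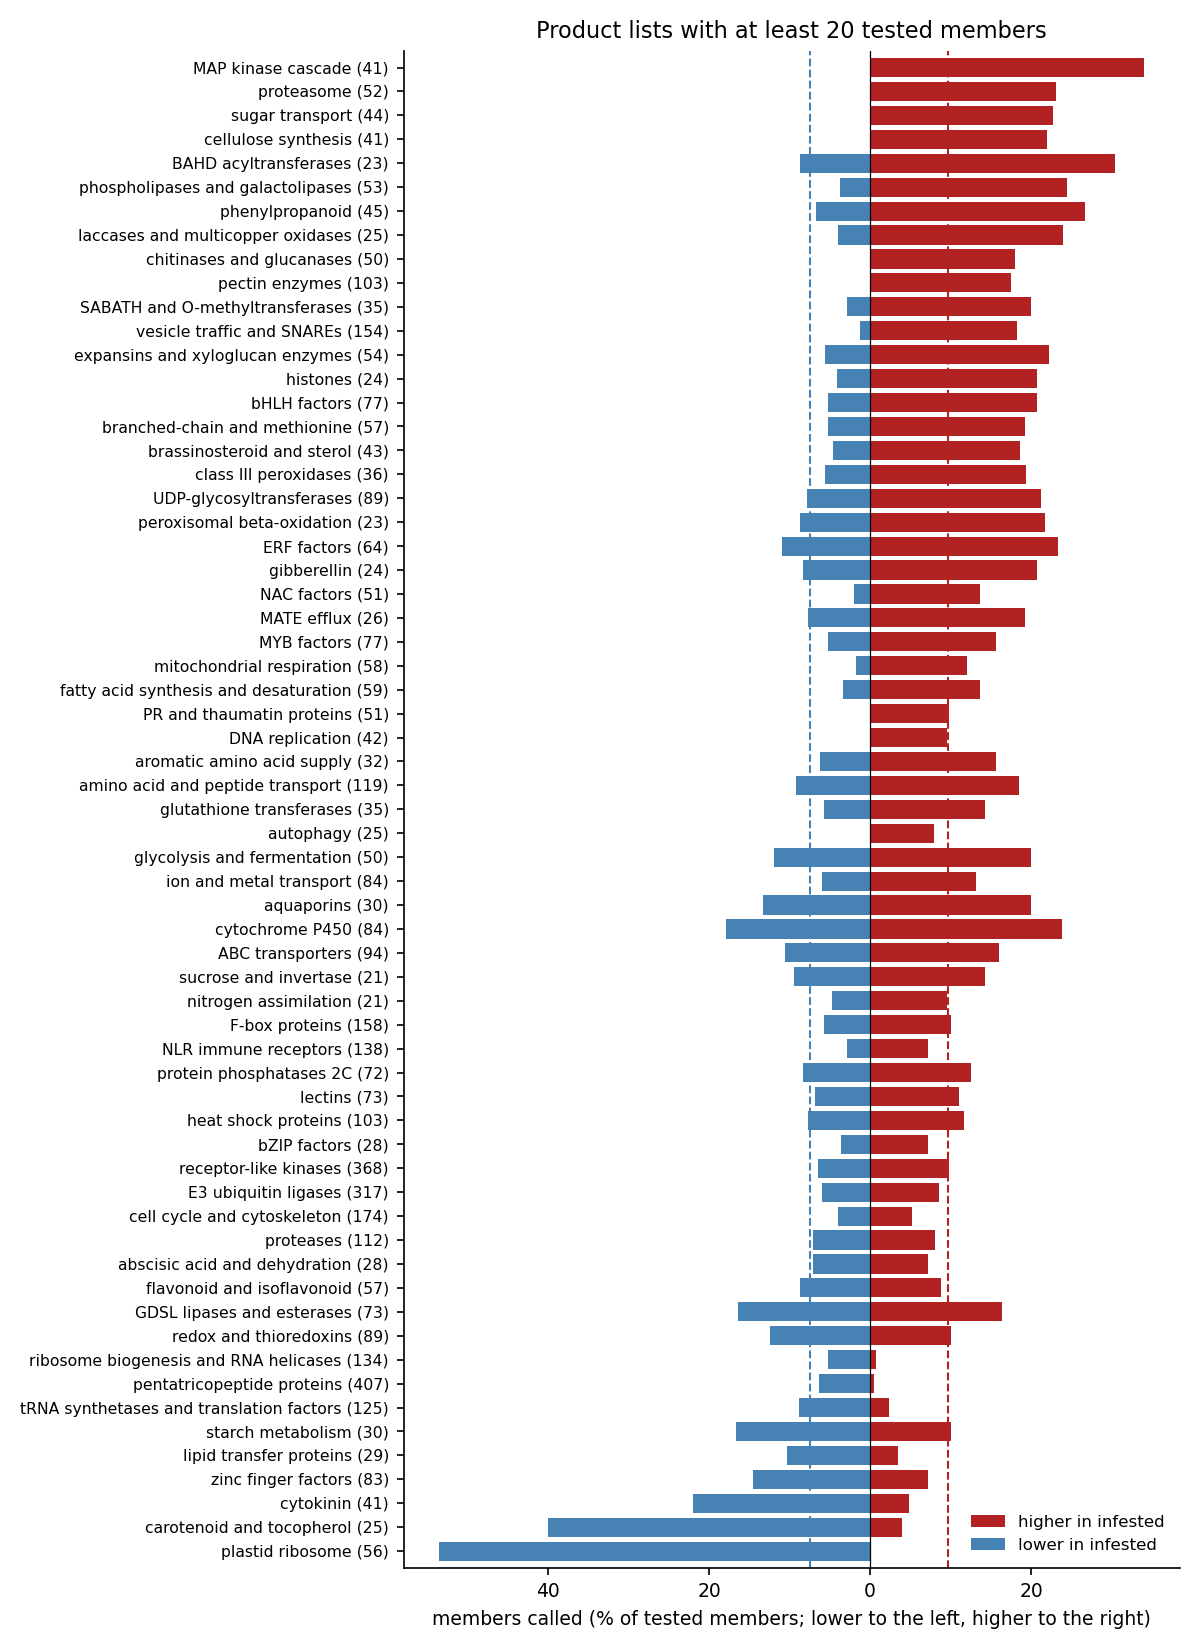
Percent of tested members called higher (red, right) and lower (blue, left) in infested leaves for every product list with at least 20 tested members, the number tested in brackets, with the shares over all genes (9.65% higher, 7.46% lower) as dashed lines. MAP kinase cascade, proteasome, sugar transport and cellulose lists have 0 falls at the top, and the plastid ribosome has 0 rises at the bottom.

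The opposite pattern was found in the genes that build and run the plastid. Plastid ribosomal proteins, matched by product name, had 0 higher and 30 lower of 56 (53.6% lower against 7.46% over all genes, median −0.57), and 51 of the 56 had a negative change. Only 2 falls reached 2-fold. Summed, the list had 3009, 2694 and 2380 CPM in infested leaves against 4588, 3799 and 4166 CPM in control leaves. The 30S ribosomal protein 2 (Pl09G0000103200.v1) had 75.9, 75.8 and 65.0 CPM against 163, 126 and 145 CPM (−1.0 ± 0.13, adjusted p = 0.00204), and the 30S protein S9 (Pl01G0000019200.v1) had 41.1, 39.3 and 33.5 CPM against 63.3, 62.0 and 69.4 CPM (−0.77 ± 0.11, adjusted p = 0.00336). Dropping infested library 2 or 3 left 10 falls, and dropping control library 3 left 15. The mesophyll markers given above moved the same way.

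Organelle tRNA ligases, which load amino acids for plastid and mitochondrial translation, had 0 higher and 8 lower of 25 (32% lower against 7.46% over all genes; median −0.36), in a group picked after its values were seen. Among the falls was the leucine enzyme (Pl03G0000126800.v1), with 42.5, 31.9 and 24.5 CPM in infested leaves against 71.7, 76.9 and 68.0 CPM in control leaves (−1.13 ± 0.18, adjusted p = 0.00552). Elongation factor Tu of the chloroplast (Pl09G0000241000.v1) had 321, 250 and 212 CPM against 581, 451 and 539 CPM (−1.01 ± 0.18, adjusted p = 0.00779). The ligase falls came to 2, 3 and 5 when infested library 2, infested library 3 and control library 3 were dropped in turn. Pentatricopeptide proteins, which process organelle RNA, had 2 higher and 26 lower of 407 (0.491% and 6.39%; median −0.16), a share of falls below that of all genes, with 12 falls of at least 2-fold. Dropping infested library 2 gave 11 falls, infested library 3 gave 13 and control library 3 gave 16.

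Carotenoid and tocopherol genes, of pigments and antioxidants of the chloroplast, had 1 higher and 10 lower of 25 (40% lower; median −0.52). Phytoene synthase (Pl08G0000330400.v1), the first enzyme of carotenoid synthesis, had 39.7, 22.3 and 23.5 CPM in infested leaves against 60.5, 72.2 and 62.3 CPM in control leaves (−1.19 ± 0.21, adjusted p = 0.00839). The cytokinin list, a word match that also took in genes named like response regulators, had 2 higher and 9 lower of 41 (22% lower, median −0.29). Its fall with the smallest p was APRR5 (Pl10G0000311500.v1), with 187, 171 and 142 CPM against 296, 288 and 321 CPM (−0.86 ± 0.13, adjusted p = 0.00429). In *Arabidopsis* APRR5 is a clock component that lacks the phosphate-accepting residue of true response regulators, so the list's counts are not those of cytokinin genes alone. Dropping infested library 3 left 3 carotenoid and 1 cytokinin falls, dropping infested library 2 left 3 and 2, and dropping control library 3 left 5 and 1. For the cytokinin list, dropping infested library 1, control library 1 or control library 2 left 4, 5 or 3.

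The mevalonate route, which makes isoprenoid units in the cytosol, rose in 10 of 14 tested genes, 9 of them at least 2-fold, and fell in 1 (71.4% higher against 9.65% over all genes, in a group picked after its values were seen; median log2 fold change 1.25). Every enzyme from acetyl-CoA to farnesyl diphosphate had a gene that rose. Log2 fold changes were 1.32 for mevalonate kinase (Pl06G0000207100.v1), 1.02 for phosphomevalonate kinase (Pl09G0000136000.v1), 1.19 for the isomerase (Pl08G0000059500.v1) and 2.20 for farnesyl pyrophosphate synthase 1 (Pl06G0000254800.v1). The remaining steps rose too: acetyl-CoA acetyltransferase (Pl08G0000433200.v1) by 2.07 ± 0.16, HMG-CoA synthase (Pl02G0000034700.v1) by 3.23 ± 0.20, HMG-CoA reductase (Pl03G0000360900.v1) by 3.57 ± 0.25 and diphosphomevalonate decarboxylase 2 (Pl07G0000022100.v1) by 3.03 ± 0.20 (adjusted p of 0.000193, 9.02e-05, 0.000141 and 0.00011). HMG-CoA reductase had 452, 470 and 664 CPM in infested leaves against 44.9, 31.5 and 56.7 CPM in control leaves. Summed over the list, the level was 2735, 2988 and 3877 CPM against 919, 809 and 918 CPM. The fall, a second HMG-CoA synthase (Pl04G0000313600.v1) at −0.55 ± 0.13, lost its call without infested library 1, 2 or 3 or control library 1 (adjusted p = 0.0522 to 0.0858), while the number of rises was 10 or 11 whichever library was left out.

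Farther along, genes named for triterpenes and soyasaponins, detergent-like defence compounds of legumes, had 10 higher and 1 lower of 28 (35.7% and 3.57%; median 0.12). Beta-amyrin synthase Pl10G0000357300.v1, which closes the triterpene ring, had 1384, 1335 and 1605 CPM in infested leaves against 680, 596 and 742 CPM in control leaves (1.10 ± 0.15, adjusted p = 0.00247). A second gene of that name, Pl06G0000315200.v1, had 219, 409 and 316 CPM against 651, 392 and 348 CPM, with overlapping groups (adjusted p = 0.218). A soyasapogenol B glucuronide galactosyltransferase (Pl07G0000021700.v1) had 707, 798 and 960 CPM against 260, 223 and 246 CPM (1.76 ± 0.15, adjusted p = 0.000291), and a soyasaponin III rhamnosyltransferase (Pl06G0000330000.v1) had 323, 322 and 412 CPM against 74.9, 70.7 and 101 CPM (2.10 ± 0.18, adjusted p = 0.000257). Each of these calls held whichever library was left out.

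Photorespiration, the route that recovers carbon from the oxygenase side reaction of Rubisco, ran the other way. Of 16 tested genes, 8 fell and 1 rose (50% lower against 7.46% over all genes; median −0.70), and the list summed to 9455, 7126 and 5667 CPM in infested leaves against 14087, 13009 and 15995 CPM in control leaves. Glycine dehydrogenase (Pl01G0000040700.v1), the decarboxylating subunit of the mitochondrial glycine system, had 2259, 1725 and 1272 CPM against 3682, 3434 and 4773 CPM (−1.18 ± 0.24, adjusted p = 0.0136). Serine-glyoxylate aminotransferase (Pl06G0000120500.v1) had 817, 566 and 529 CPM against 1301, 1175 and 1344 CPM (−1.0 ± 0.19, adjusted p = 0.00967). Infested library 1 stood nearest the controls in both. Both calls were lost without infested library 2 (adjusted p = 0.0606 and 0.0513 in edgeR's test). The falls of the list came to 0, 3 and 4 when infested library 2, infested library 3 and control library 3 were dropped in turn. The gene that rose was phosphoglycolate phosphatase 2 (Pl06G0000254900.v1), with 50.7, 44.9 and 62.9 CPM against 15.8, 12.5 and 18.2 CPM (1.77 ± 0.18, adjusted p = 0.000581).

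Serine can also be made outside photorespiration, by the phosphorylated route in plastids. There 2 of 6 tested genes rose and 0 fell, in a group picked after its values were seen. That is 33.3% higher against 9.65% over all genes, with a median log2 fold change of 0.43. The other members were not called, among them D-3-phosphoglycerate dehydrogenase 1 (Pl07G0000044700.v1, adjusted p = 0.0719 in edgeR's test), and 2 of the 6 had a negative change. D-3-phosphoglycerate dehydrogenase 2 (Pl08G0000400100.v1) had 644, 1022 and 1289 CPM in infested leaves against 208, 290 and 275 CPM in control leaves (1.93 ± 0.26, adjusted p = 0.00244). Phosphoserine aminotransferase 1 (Pl02G0000072500.v1) had 123, 249 and 339 CPM against 41.8, 41.1 and 38.2 CPM (2.55 ± 0.32, adjusted p = 0.00191). Phosphoserine phosphatase (Pl10G0000072000.v1), the last step, averaged 24.9 and 26.3 CPM (adjusted p = 0.783).

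**Figure D5:**
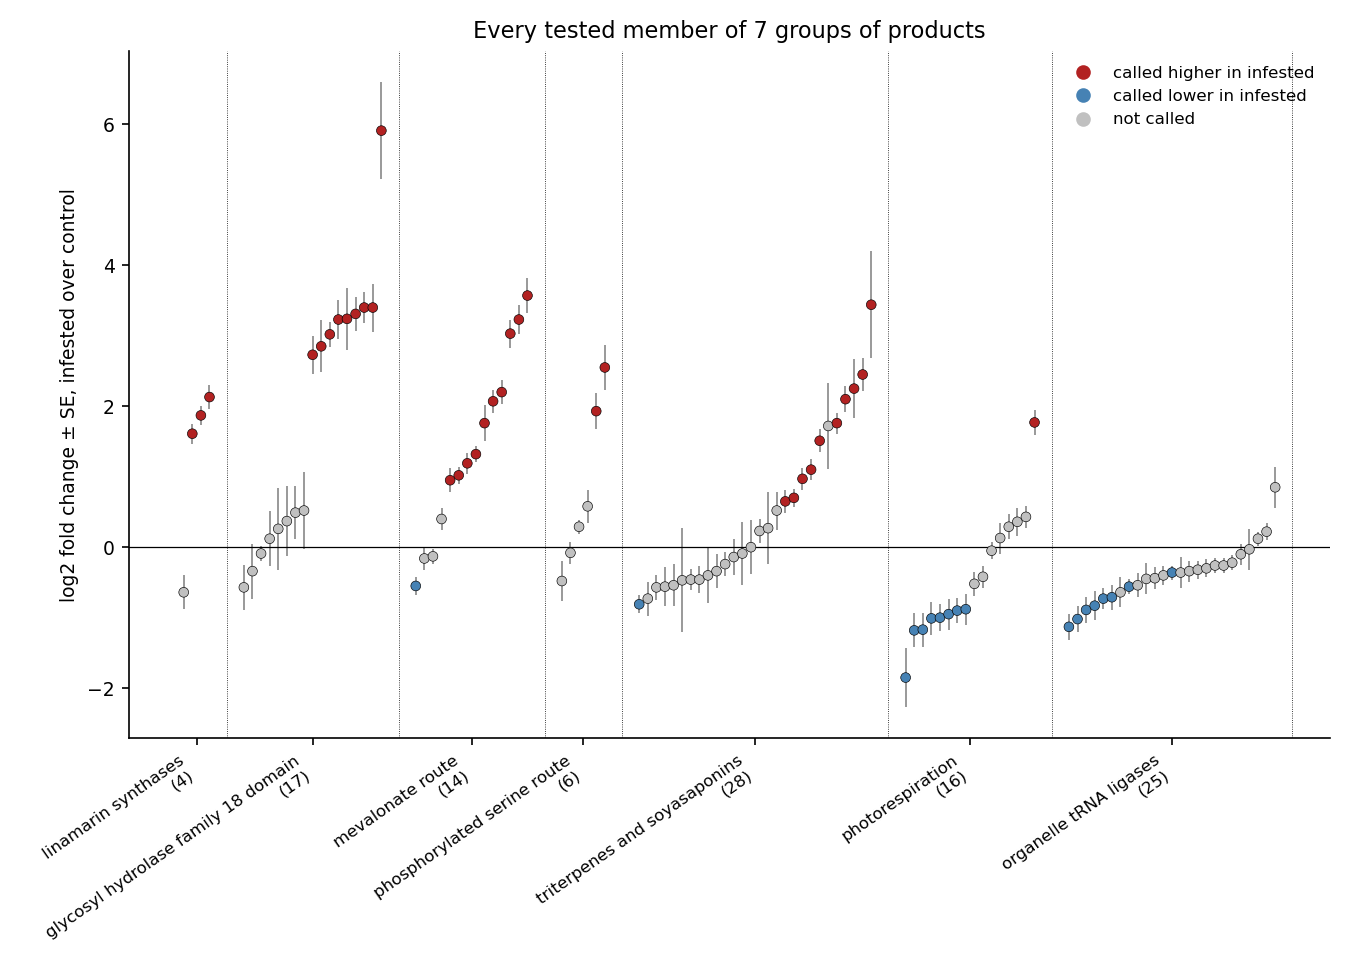
Log2 fold change (infested over control) ± SE of every tested member of 7 product groups, ordered by value within a group, red for called rises, blue for called falls and grey for genes not called. The 9 called glycosyl hydrolase family 18 genes are those of chromosome 9, the mevalonate route lies mostly above 0, and photorespiration and the tRNA ligases mostly below 0. The point near 6 is the cluster gene with 3 control reads, whose fitted value depends on the prior count.

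Benzenoid genes were among the neighbours that rose together. Benzyl alcohol O-benzoyltransferase, which makes the volatile benzyl benzoate, was the name of 2 adjacent pairs on chromosome 6, at 26125506 to 26144702 and at 26167344 to 26178420. The first pair summed to 602 CPM in infested and 69.4 CPM in control leaves, the second to 777 and 79.9 CPM. Within the second, Pl06G0000214000.v1 had 62.3, 55.6 and 62.2 CPM against 1.08, 2.59 and 1.45 CPM (5.15 ± 0.25, adjusted p = 5.28e-05). A pair of benzoic acid/salicylic acid carboxyl methyltransferase genes, which make the volatiles methyl benzoate and methyl salicylate, lay next to each other on chromosome 3 (40706558 to 40729254) and summed to 1632 and 167 CPM. The larger, Pl03G0000344600.v1, had 1170, 1193 and 1312 CPM against 90.0, 144 and 66.4 CPM (3.61 ± 0.28, adjusted p = 0.000193). In all, 26 runs of neighbouring called genes shared a product name and a direction, 23 of them higher and 3 lower, with 54 genes in total. Over all genes, 56.4% of calls were higher. The runs of seed linoleate 9S-lipoxygenase, linoleate 9S-lipoxygenase-4 and 12-oxophytodienoate reductase 3, all higher, belong to the jasmonate list. Neighbours of the same name among all tested genes were not counted, and such copies may share reads.

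Calls were otherwise spread over the genome. The share of tested genes called ran from 16.3% on chromosomes 3 and 7 to 18.4% on chromosome 10. Of 180 domain families with at least 10 tested genes, 142 had a called rise, 130 a called fall and 14 neither. At the shares over all genes (9.65% higher, 7.46% lower), families of that size would often hold a call, so these counts say little. The share of rises was at least double that over all genes in 38 families, and the share of falls in 28. The highest shares were 75% higher in the Zim family (9 of 12) and 40% lower in FKBP_C (8 of 20).

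Several lists held rises and falls side by side. Cytochrome P450 genes, which oxidise hormones and defence compounds, had 20 higher and 15 lower of 84 (23.8% and 17.9%). P450 72A15 (Pl11G0000003500.v1) had 1226, 1215 and 1568 CPM in infested leaves against 335, 350 and 316 CPM in control leaves (2.00 ± 0.15, adjusted p = 0.000178), while P450 78A3 (Pl10G0000307800.v1) had 45.3, 39.5 and 35.4 CPM against 74.9, 76.9 and 79.5 CPM (−0.94 ± 0.11, adjusted p = 0.00146). GDSL lipases and esterases had 12 higher and 12 lower of 73 (16.4% and 16.4%, against 9.65% and 7.46% over all genes). ABC transporters, which pump metabolites across membranes, had 15 higher and 10 lower of 94 (16% and 10.6%). ABCG1 (Pl02G0000337800.v1) had 1149, 1036 and 1206 CPM against 225, 170 and 176 CPM (2.57 ± 0.16, adjusted p = 9.02e-05), and ABCC8 (Pl10G0000333400.v1) had 15.4, 12.6 and 13.5 CPM against 31.9, 29.8 and 30.7 CPM (−1.16 ± 0.12, adjusted p = 0.000638). Receptor-like kinases had 36 higher and 24 lower of 368, shares of 9.78% and 6.52% that lie near those of all genes, and E3 ubiquitin ligases 27 and 19 of 317 (8.52% and 5.99%). With infested library 3 left out these counts were 14 and 7 for the P450 genes, 7 and 6 for the GDSL genes, 7 and 4 for the ABC transporters, 18 and 3 for the kinases, and 9 and 4 for the ligases. Dropping infested library 2 gave 16 and 9, 7 and 5, 9 and 6, 19 and 6, and 10 and 4, in the same order. Of the control libraries, dropping library 1 left 9 ABC rises, 17 ligase rises and 12 ligase falls, dropping library 2 left 7 GDSL falls, 12 kinase falls and 8 ligase falls, and dropping library 3 left 9 ABC rises, 6 GDSL falls, 10 kinase falls, 15 ligase rises and 4 ligase falls.

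The same product name could stand on both sides. Of 297 names shared by at least 2 called genes, 162 had rises only, 61 falls only and 74 (24.9%) had both. Most of these names thus kept to 1 direction, and 56.4% of all calls were higher. Carbonic anhydrase was one: the gene on chromosome 9 (Pl09G0000255900.v1) had 17.7, 11.8 and 23.1 CPM in infested leaves against 0, 0.631 and 0 CPM in control leaves (6.40 ± 0.72, adjusted p = 0.00106), while the abundant gene on chromosome 4 fell as given above. In all, carbonic anhydrase had 1 called rise and 2 called falls. The genes of this paragraph outside the rule for names were chosen after their values were seen. For the internal alternative NAD(P)H-ubiquinone oxidoreductase, a second gene (Pl08G0000405200.v1) had 53.4, 70.4 and 54.8 CPM against 22, 29.3 and 20.4 CPM (1.32 ± 0.17, adjusted p = 0.00204), opposite to the fall above. Transcription factor MYB73 had a rise (Pl01G0000028500.v1, 37 and 12 CPM in infested and control leaves; 1.62 ± 0.18, adjusted p = 0.00105) and a fall (Pl02G0000111000.v1, 68 and 99.7 CPM; −0.55 ± 0.10, adjusted p = 0.00838). The nitrate and peptide transporter family name NPF 1.2 had 2 called rises and 1 called fall. Among them were a rise in Pl05G0000281300.v1 (132, 155 and 170 CPM against 43.0, 45.4 and 48.6 CPM; 1.74 ± 0.12, adjusted p = 0.000141) and the fall in Pl09G0000087300.v1 (33.4, 23.1 and 21.3 CPM against 45.8, 52.9 and 60.0 CPM; −1.03 ± 0.18, adjusted p = 0.00811).

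Among regulators outside the jasmonate list, bHLH factors had 16 higher and 4 lower of 77 (20.8% and 5.19%, against 9.65% and 7.46% over all genes). ERF factors had 15 and 7 of 64 (23.4% and 10.9%), and MYB factors 12 and 4 of 77 (15.6% and 5.19%). NAC factors had 7 and 1 of 51 (13.7% and 1.96%), and zinc finger factors 6 and 12 of 83 (7.23% and 14.5%). Several of these shares lie near those over all genes. Transcription factor bHLH25 (Pl08G0000056200.v1) had 253, 248 and 388 CPM in infested leaves against 21.8, 28.4 and 26.8 CPM in control leaves (3.53 ± 0.21, adjusted p = 9.02e-05). ERF114 (Pl01G0000107400.v1) had 7.22, 16.7 and 15.6 CPM against 2.91, 2.80 and 2.24 CPM (2.31 ± 0.33, adjusted p = 0.00345). MYB48 (Pl05G0000252700.v1) had 18, 16.5 and 11 CPM against 55.4, 44.1 and 41.4 CPM (−1.63 ± 0.20, adjusted p = 0.00155). The groups did not overlap in any of these. Dropping infested library 3 gave 10 and 0 for bHLH, 10 and 1 for ERF, 8 and 3 for MYB, 2 and 0 for NAC and 3 and 3 for zinc finger factors, and dropping infested library 2 gave 12 and 0, 9 and 1, 10 and 3, 2 and 0, and 3 and 3. Dropping a control library gave 2, 1 and 0 bHLH falls and 4, 4 and 5 ERF falls for libraries 1, 2 and 3, 2 NAC rises for library 2, and 7 zinc finger falls for library 2 or 3.

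The spread between libraries differed by direction. Among the genes that fell, the median standard deviation of log2 CPM was 0.24 in infested and 0.17 in control libraries, and it was larger in infested libraries for 66.2% of them. Among those that rose it was 0.17 in infested and 0.20 in control libraries, and over all tested genes 0.18 and 0.21.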

How the data were processed

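The lima bean table was deposited as raw counts per gene. Per the submitters' processing notes the tools were HISAT2, featureCounts and DESeq2. No source used here states their settings, the genome build or the strand mode, so overlapping genes cannot be separated, and coordinates are those of the deposited table. Counts were fitted with edgeR 4.0.16 (R 4.3.3): filterByExpr, TMM factors, quasi-likelihood test of infested against control on the 6 lima bean libraries, Benjamini-Hochberg adjustment over 18523 genes. CPM are counts over TMM-scaled library sizes. Total counts were 13317991 to 17255676 per library, and that depth limits genes under 1 CPM. In 5 simulations of 18523 genes with 200 changed, the test found 76.6% of the 2-fold changes and 98.6% of the 4-fold ones, and 7.29% of calls were false. Changed genes were drawn only from those with a mean of at least 5 CPM, so these recovery rates do not cover lower genes. The simulations also changed far fewer genes than were called in the data. Each standard error is the log2 fold change divided by the root of its F statistic.

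The 68 product lists are word matches in product names, and 20775 of the 43997 genes carry an informative product. No gene ID matched the reference table of *P. vulgaris* (0 IDs matched), and no sequence was used. Members, lists and comparisons were chosen with earlier results of these data known, and the 7 groups of metabolic and domain names were added after values were seen. Genes are named by a rule: outside both set-aside lists, the 5 largest non-overlapping rises and falls of each level class, the 5 highest called genes with 0 reads in a group, the 5 smallest p per direction under 2-fold, the 10 highest genes per kilobase, and the 3 smallest p per direction of each list and of genes without product. Members of the added groups, of the 1000 CPM class and of the 16-fold class are named outside it. Alternatives were other scalings, filters, DESeq2 1.42.0, limma-voom (limma 3.58.1), a 1.5-fold null, a replicate block and leaving out each library.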

Additional observations from a re-analysis of the deposited data

How the results depend on the processing

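Of the counts of calls over all genes, those under median-ratio, upper-quartile and library-total scaling, no filter, a filter of 1 CPM in 3 libraries, a robust fit, limma-voom and DESeq2 stayed within 1.5 times of the values reported. Among the lists described, several counts moved further. Under upper-quartile or library-total scaling, proteasome rises numbered 7 and photosynthesis rises 3, against 12 and 5. Sucrose and invertase rises numbered 1 against 3 under both scalings, and carotenoid and tocopherol rises 0 against 1. Triterpene falls numbered 2 under upper-quartile scaling, 3 under library totals and 4 under DESeq2, against 1. The split of directions moved with scaling: upper-quartile factors gave 1578 rises and 1680 falls, and library totals gave 1614 and 1612. Of the 3170 calls, DESeq2 called 3112 and limma-voom 3037 in the same direction. Against a null of 1.5-fold, 685 genes were called, 571 higher and 114 lower (109 lower at 2-fold or more). Deviations from the group mean correlated at −0.22, 0.0487 and −0.184 between libraries of the same replicate number. The highest value of any pair was 0.358, for infested library 1 and control library 3. Deviations within a group of 3 sum to 0, so these values cannot decide whether the numbers mark pairs. With a replicate block, calls numbered 1617, 1046 higher and 571 lower, 268 of the falls at 2-fold or more. Over the fits that left out 1 library, calls ran from 1317 to 3204, rises from 900 to 1671, falls from 417 to 1533, rises of at least 2-fold from 587 to 916 and falls of at least 2-fold from 158 to 702. Without infested library 1 the falls of at least 2-fold rose to 702, against 158 without infested library 3. Among 507 called genes open to naming, 342 kept their call in every such fit and 0 reversed under any alternative. Sorting by control CPM moved the level classes as given above. The cause was not tested.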
